A study of Mus musculus with 12 samples.

Results

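The genes of cholesterol and fatty acid synthesis were followed in the lungs of adult mice that breathed room air or hyperoxia. The set was a list of 36 genes of known function, in a sterol arm of 18 genes, a fatty acid arm of 12 genes and a group of 6 regulators and transport proteins. It was chosen by function and not by a threshold on these values, although earlier results of these data were known. Of the 36 genes, 35 had a transcript cluster that carried their symbol alone, out of 19938 genes that could be named. Acat2, the acetyl-CoA acetyltransferase of the sterol arm, was not analysed here.

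Lung RNA of wild-type C57BL/6J mice, 8 to 10 weeks old, was hybridized to Affymetrix Mouse Gene ST arrays after 48 h of hyperoxia (FiO2 above 0.95) or in room air. The 12 arrays made 4 groups of 3, namely female room air, female hyperoxia, male room air and male hyperoxia, and no group carried a transgene or another agent. Each array held a randomized pool of lung RNA of 4 mice, so the spread between arrays is that between pools and not that between single animals. The values are log2 signals of transcript clusters, on which a difference of 1 is a doubling.

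Cholesterol is built from acetyl-CoA by way of mevalonate, farnesyl diphosphate, squalene and lanosterol, and the enzymes of this route are known targets of the transcription factor SREBP-2, encoded by Srebf2. Fatty acids are built from the same acetyl-CoA by acetyl-CoA carboxylase and fatty acid synthase, whose genes are classical targets of SREBP-1c, encoded by Srebf1. When sterols are scarce Scap carries both factors out of the endoplasmic reticulum, where the Insig proteins otherwise hold them. In the lung, alveolar type II cells use both routes to make the lipids of surfactant.

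The promoters of 8 genes are shown because they stand for the patterns described below, with 4 sterol genes that rose in both sexes (Lss, Cyp51, Msmo1 and Hsd17b7), 2 sterol genes that were not called (Hmgcs1 and Ebp) and 2 fatty acid genes that fell in both sexes (Fasn and Acss1). Each is the stretch of 250 bases before the gene's start in RefSeq on GRCm38.p6, written 5′ to 3′ on the strand of the gene. Capitals mark the CCAAT box, as CCAAT or its reverse complement ATTGG, the E-box CACGTG, which reads the same on both strands, and the letters TCACNCCAC, a form of the sterol regulatory element, on either strand.
Lss (chr10:76531355-76531604, plus strand): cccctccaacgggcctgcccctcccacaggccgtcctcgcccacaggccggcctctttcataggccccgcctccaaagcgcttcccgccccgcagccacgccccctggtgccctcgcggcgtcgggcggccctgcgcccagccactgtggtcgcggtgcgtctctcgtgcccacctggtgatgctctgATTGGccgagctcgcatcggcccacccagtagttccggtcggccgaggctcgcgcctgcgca
Cyp51 (chr5:4104698-4104947, minus strand): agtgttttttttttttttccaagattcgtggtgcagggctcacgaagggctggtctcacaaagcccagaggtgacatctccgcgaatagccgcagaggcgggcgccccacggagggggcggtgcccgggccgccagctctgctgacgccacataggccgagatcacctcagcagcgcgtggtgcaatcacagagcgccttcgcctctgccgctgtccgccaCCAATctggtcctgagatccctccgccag
Msmo1 (chr8:64733579-64733828, minus strand): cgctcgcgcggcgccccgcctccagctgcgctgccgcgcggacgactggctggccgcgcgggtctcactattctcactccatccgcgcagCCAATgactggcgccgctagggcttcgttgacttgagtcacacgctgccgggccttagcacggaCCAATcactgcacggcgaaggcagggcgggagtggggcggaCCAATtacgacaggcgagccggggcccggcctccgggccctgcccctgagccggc
Hsd17b7 (chr1:169969206-169969455, minus strand): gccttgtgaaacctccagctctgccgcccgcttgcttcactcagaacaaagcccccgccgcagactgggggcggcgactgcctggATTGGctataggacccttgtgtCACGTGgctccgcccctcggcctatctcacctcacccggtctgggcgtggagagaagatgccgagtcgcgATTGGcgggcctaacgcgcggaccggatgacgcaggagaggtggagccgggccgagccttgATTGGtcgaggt
Hmgcs1 (chr13:119690101-119690350, plus strand): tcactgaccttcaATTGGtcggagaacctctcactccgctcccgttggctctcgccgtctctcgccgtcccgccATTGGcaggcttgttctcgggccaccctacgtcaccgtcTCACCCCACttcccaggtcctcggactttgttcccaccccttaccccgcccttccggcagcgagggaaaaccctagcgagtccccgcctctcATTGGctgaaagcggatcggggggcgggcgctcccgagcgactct
Ebp (chrX:8193513-8193762, minus strand): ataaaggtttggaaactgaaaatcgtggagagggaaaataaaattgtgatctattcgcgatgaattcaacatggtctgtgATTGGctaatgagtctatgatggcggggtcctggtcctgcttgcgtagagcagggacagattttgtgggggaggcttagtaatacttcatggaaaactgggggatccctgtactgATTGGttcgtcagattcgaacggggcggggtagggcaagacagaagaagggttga
Fasn (chr11:120824548-120824797, minus strand): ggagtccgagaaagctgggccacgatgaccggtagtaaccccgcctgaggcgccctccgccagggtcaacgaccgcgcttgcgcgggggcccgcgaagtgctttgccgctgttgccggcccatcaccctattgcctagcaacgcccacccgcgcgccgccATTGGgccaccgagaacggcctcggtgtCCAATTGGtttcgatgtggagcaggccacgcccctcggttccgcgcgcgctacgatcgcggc
Acss1 (chr2:150668241-150668490, minus strand): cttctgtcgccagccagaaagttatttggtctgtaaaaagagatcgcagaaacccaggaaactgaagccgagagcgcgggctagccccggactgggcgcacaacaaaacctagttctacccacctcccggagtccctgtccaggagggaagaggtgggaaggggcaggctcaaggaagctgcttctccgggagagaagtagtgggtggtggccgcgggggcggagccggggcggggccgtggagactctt

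A promoter entry was found for 29 of the 36 genes. Those without one were Sqle, Scd1, Fdps, Fdft1, Fads1, Stard4 and Scd2. A CCAAT box lay in at least 1 listed promoter of 14 of 15 sterol genes (93.3%), of 4 of 5 regulators (80.0%) and of 4 of 9 fatty acid genes (44.4%). Among the 15614 genes with both a promoter entry and a cluster on the arrays the share was 38.8%. Some genes have several listed promoters, and the 5 regulators have 10, which gives them more windows. Counted by promoter, the shares were 77.8% for sterol genes, 50% for regulators and 40% for fatty acid genes, against 34.5%. The box lay in 6 of 6 sterol genes that rose in at least 1 sex and in 8 of the 9 others. The exception was Acat2, which was not analysed on the arrays. Every measured sterol gene with a promoter entry thus held the box, whether it rose or not. In Lss it began 62 bases and in Cyp51 29 bases before the start, and Msmo1 and Hsd17b7 held 3 boxes each, Hsd17b7 with an E-box that began 143 bases before the start. Fasn also held 3, of which the pair nearest the start overlap in the letters CCAATTGG, while Acss1 held none of the motifs. The letters TCACNCCAC were found in 1 of the 29 genes, Hmgcs1, where they began 137 bases before the start, against 1.2% of genes with a cluster. The E-box was found in 3 of 15 sterol genes, 2 of 5 regulators and 1 of 9 fatty acid genes, against 8.1% of genes with a cluster. Counted by promoter, these shares were 16.7%, 20% and 10%, against 6.99%. These are matches of letters in a window, and binding was not measured.

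After 48 h of hyperoxia the sterol arm and the fatty acid arm, as listed, moved in opposite directions in both sexes. A further list of 23 measured fatty acid synthesis genes, given below, did not share the direction of the fatty acid arm. A gene was called when limma's adjusted p (Benjamini-Hochberg over all 35556 clusters) was under 0.05 and the fold change was at least 1.4. In females 8 of 17 sterol genes were upregulated and none was downregulated, while 5 of 12 fatty acid genes were downregulated and none was upregulated. Of all clusters tested in females 3.59% were called higher and 2.93% lower. In males 7 sterol genes were upregulated and 4 fatty acid genes were downregulated, again with none the other way, where 3.94% of all clusters were called higher and 3.39% lower. At an unadjusted p under 0.05 there was still no sterol gene lower and no fatty acid gene higher in either sex, with 10 sterol genes higher and 10 fatty acid genes lower in each sex. Of all clusters 13.3% were higher and 13.7% lower at that p in females, and 13.8% and 14.2% in males. No regulator was called. The median log2 fold change of the sterol arm was 0.41 in females and 0.27 in males, that of the fatty acid arm -0.48 and -0.34, and that of the regulators and transport group -0.05 and -0.04, beside -0.02 and 0.00 over all clusters. The medians carry no test, since the genes were chosen with results known. In whole lung RNA, fewer cells of a type and less RNA per cell cannot be told apart.

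**Figure D1:**
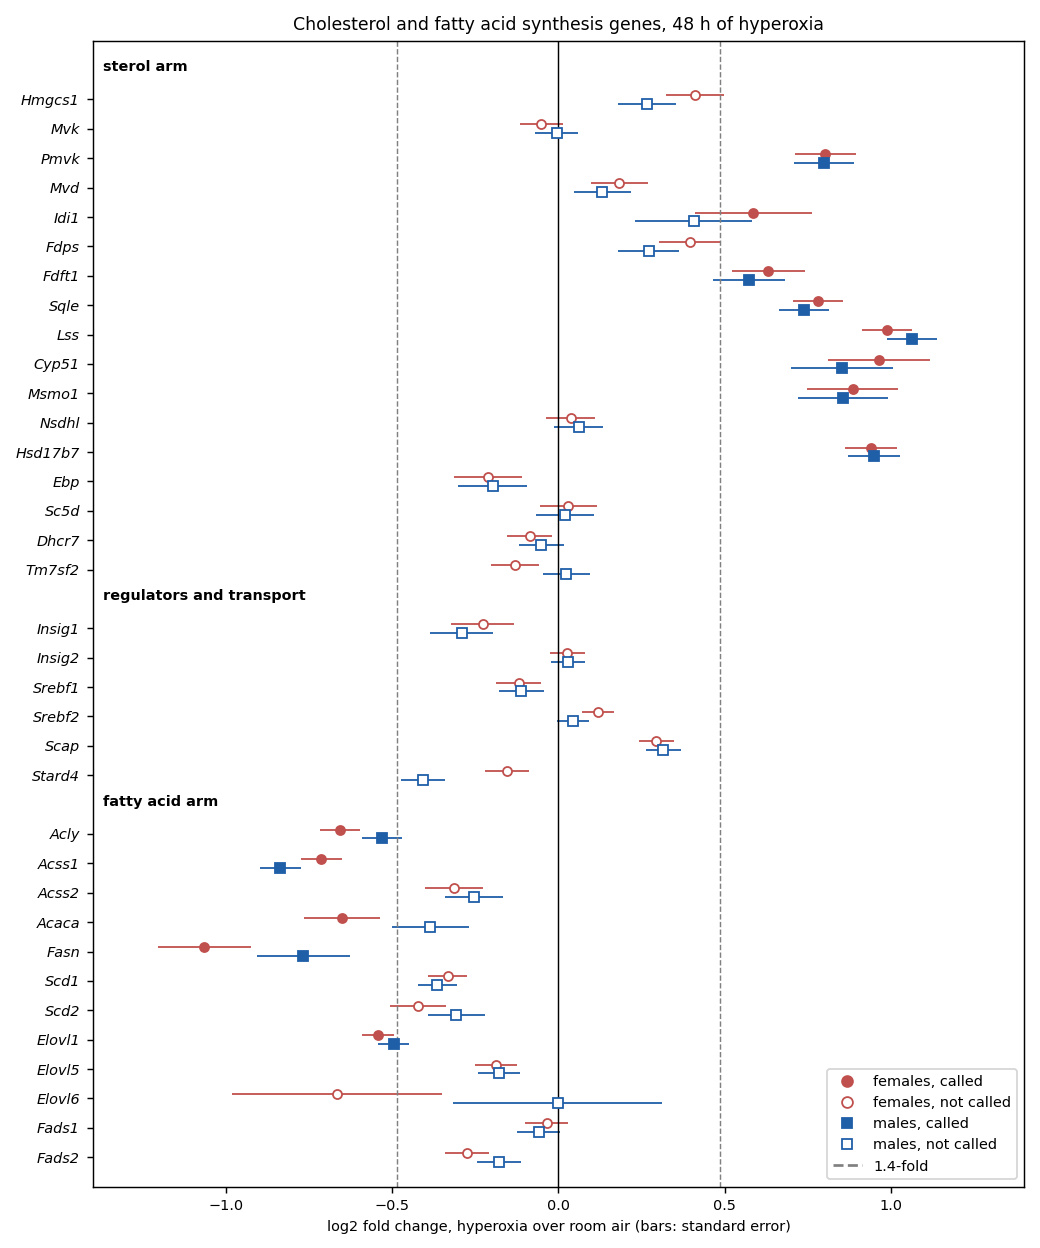
Log2 fold change of each of the 35 genes, hyperoxia over room air, in females and in males, with bars of 1 standard error from limma (n = 3 arrays per group) and the genes ordered by pathway. Filled symbols are called genes, and the dashed lines mark the 1.4-fold threshold. The called sterol genes lie to the right of 0, with Lss furthest at 0.99 and 1.06, the other sterol genes lie from -0.21 to 0.41, and the fatty acid genes lie at or to the left of 0, with Fasn furthest in females at -1.06.

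The sterol arm was followed step by step. In the mevalonate section, from acetyl-CoA to farnesyl diphosphate, 2 of the 6 genes measured were called in females and 1 in males. Pmvk, phosphomevalonate kinase, was at log2 values of 8.42, 8.72 and 8.67 in female room air and 9.49, 9.34 and 9.39 in female hyperoxia. In males it was at 8.53, 8.47 and 8.62 in room air and 9.31, 9.46 and 9.25 in hyperoxia. All hyperoxia arrays lay above all room air arrays. Its log2 fold change was 0.80 ± 0.09 in each sex (SE from limma, n = 3 arrays per group). The limma adjusted p was 0.000167 in females and 0.000153 in males. Each SE given rests on a variance that limma estimates over all 4 groups, so a gene has the same SE in both sexes.

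Idi1, isopentenyl diphosphate isomerase, passed the thresholds in females alone and only narrowly. Its female values were 9.78, 9.67 and 10.21 in room air and 10.58, 10.31 and 10.52 in hyperoxia, a log2 fold change of 0.59 ± 0.18 (SE, n = 3) with a limma adjusted p of 0.0430. The male values were 9.41, 10.08 and 9.76 in room air and 10.15, 10.25 and 10.07 in hyperoxia, a difference of 0.41 with an adjusted p of 0.158. The female arrays did not overlap, and the male arrays did, by 1 array. The female call was lost in 8 of 12 refits that left out 1 array, with adjusted p from 0.0599 to 0.156, at values of 0.48 to 0.59. In males the value was 0.57 (adjusted p = 0.0417) without the second male room air array and 0.24 (adjusted p = 0.412) without the first. A second cluster of Idi1 gave 0.55 in females and 0.38 in males.

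The other 4 genes of this section were not called. Hmgcs1, the cytosolic HMG-CoA synthase that commits acetyl units to the route, differed by 0.41 (limma adjusted p = 0.00753) in females and 0.27 (adjusted p = 0.0573) in males, with arrays that did not overlap in either sex. Its room air arrays ran from 10.51 to 10.71 in females and 10.43 to 10.70 in males, and its hyperoxia arrays from 10.97 to 11.09 and 10.73 to 10.95. Fdps, farnesyl diphosphate synthase, was alike, with differences of 0.39 (adjusted p = 0.0135) and 0.27 (adjusted p = 0.0705), short of the fold threshold. Mvk and Mvd, the kinase and the decarboxylase that act before and after Pmvk, had differences of -0.05 and 0.18 in females and -0.01 and 0.13 in males. The 95% interval of the Mvk difference was -0.20 to 0.09 in females and -0.15 to 0.14 in males, while those of Pmvk were 0.60 to 1.00 in both. At an adjusted p under 0.05 and any fold, 10 sterol genes were higher in females, where 9.08% of all clusters passed, and 7 in males, where 10.0% did.

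All 3 genes of the squalene section were upregulated in both sexes. Fdft1, squalene synthase, which joins farnesyl units in the first step given over to sterols, was at 10.93, 10.80 and 11.07 in female room air and 11.66, 11.55 and 11.49 in female hyperoxia. In males it was at 10.60, 10.92 and 10.54 and then 11.19, 11.37 and 11.22. The groups did not overlap in either sex. The log2 fold changes were 0.63 ± 0.11 (SE, n = 3, limma adjusted p = 0.00230) in females and 0.57 ± 0.11 (adjusted p = 0.00377) in males, and a second cluster of the gene gave 0.68 and 0.72.

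Sqle, squalene epoxidase, the first oxygen-using enzyme of the route, was at 9.93, 9.89 and 10.10 in female room air against 10.79, 10.75 and 10.72 in hyperoxia. Its male values were 9.76, 9.89 and 9.87 in room air against 10.50, 10.69 and 10.54 in hyperoxia. Again the groups stood apart, by more than the range of either. The rise was 0.78 ± 0.07 (SE, n = 3, limma adjusted p = 5.89e-05) in females and 0.74 ± 0.07 (adjusted p = 7.26e-05) in males, or 1.72-fold and 1.67-fold.

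Lss, lanosterol synthase, which closes the rings of the sterol skeleton, had the largest fold change of the arm in both sexes. In females it was at 9.02, 8.97 and 9.15 in room air and at 10.02, 10.04 and 10.03 in hyperoxia. The male arrays held 8.90, 9.08 and 8.95 in room air and 10.04, 10.14 and 9.92 in hyperoxia. The 3 female hyperoxia arrays lay within 0.02 of each other. The fold change was 1.98 in females (log2 0.99, 95% interval 0.82 to 1.15, limma adjusted p = 1.55e-05) and 2.09 in males (log2 1.06, interval 0.90 to 1.23, adjusted p = 8.52e-06). Its promoter, printed above, held a single CCAAT box.

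In the section from lanosterol to cholesterol 3 of 8 genes were upregulated, the same 3 in both sexes, and the rest were not called. Cyp51, the lanosterol demethylase, a cytochrome P450, was at 9.17, 8.86 and 9.37 in female room air and 10.34, 9.89 and 10.05 in hyperoxia. Its male values were 8.77, 9.16 and 8.92 and then 9.78, 9.90 and 9.73. The groups did not overlap, though the arrays of a group spread more than those of Lss. The log2 fold change was 0.96 ± 0.15 (SE, n = 3, limma adjusted p = 0.00146) in females and 0.85 ± 0.15 (adjusted p = 0.00275) in males.

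Removal of the methyl groups that follow is shared by Msmo1, the methylsterol oxidase, Nsdhl, the decarboxylating dehydrogenase, and Hsd17b7, the ketosteroid reductase. Msmo1 was at 10.16, 10.01 and 10.44 in female room air and 11.25, 10.97 and 11.05 in hyperoxia, and in males at 9.82, 10.29 and 10.01 and then 10.90, 10.96 and 10.81. Hsd17b7 was at 9.03, 8.97 and 9.06 and then 9.94, 10.04 and 9.91 in females, and at 8.87, 9.04 and 8.81 and then 9.84, 9.96 and 9.75 in males. Nsdhl was at 10.15, 10.15 and 10.34 and then 10.20, 10.36 and 10.18 in females, and at 10.09, 10.15 and 10.08 and then 10.12, 10.25 and 10.13 in males. The outer members of the trio therefore rose without overlap, and the arrays of Nsdhl were mixed. Msmo1 changed by 0.88 ± 0.14 (SE, n = 3, limma adjusted p = 0.00119) in females and 0.85 ± 0.14 (adjusted p = 0.00132) in males, and Hsd17b7 by 0.94 ± 0.08 (adjusted p = 2.41e-05) and 0.95 ± 0.08 (adjusted p = 1.94e-05). The Nsdhl difference was 0.04 (95% interval -0.13 to 0.20) and 0.06 (interval -0.10 to 0.23), and neither interval reaches the 1.4-fold threshold, which is 0.485 in log2.

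The other genes of this section were not called. Sc5d, the lathosterol desaturase, differed by 0.03 and 0.02 in females and males, Dhcr7, the reductase that makes cholesterol itself, by -0.09 and -0.05, and Tm7sf2, a sterol reductase, by -0.13 and 0.02. The 95% intervals of these values all lay between -0.29 and 0.22. Ebp, the sterol isomerase, had the most negative values of the arm, -0.21 (limma adjusted p = 0.224) and -0.20 (adjusted p = 0.259). Its male hyperoxia arrays, at 9.54, 9.56 and 9.41, lay just under the male room air arrays at 9.58, 9.83 and 9.69, and the female arrays overlapped. Over the arm, 11 of 17 genes had female hyperoxia arrays all above room air, against 14.7% of all clusters, and 9 had this in males, against 16.2%.

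**Figure D2:**
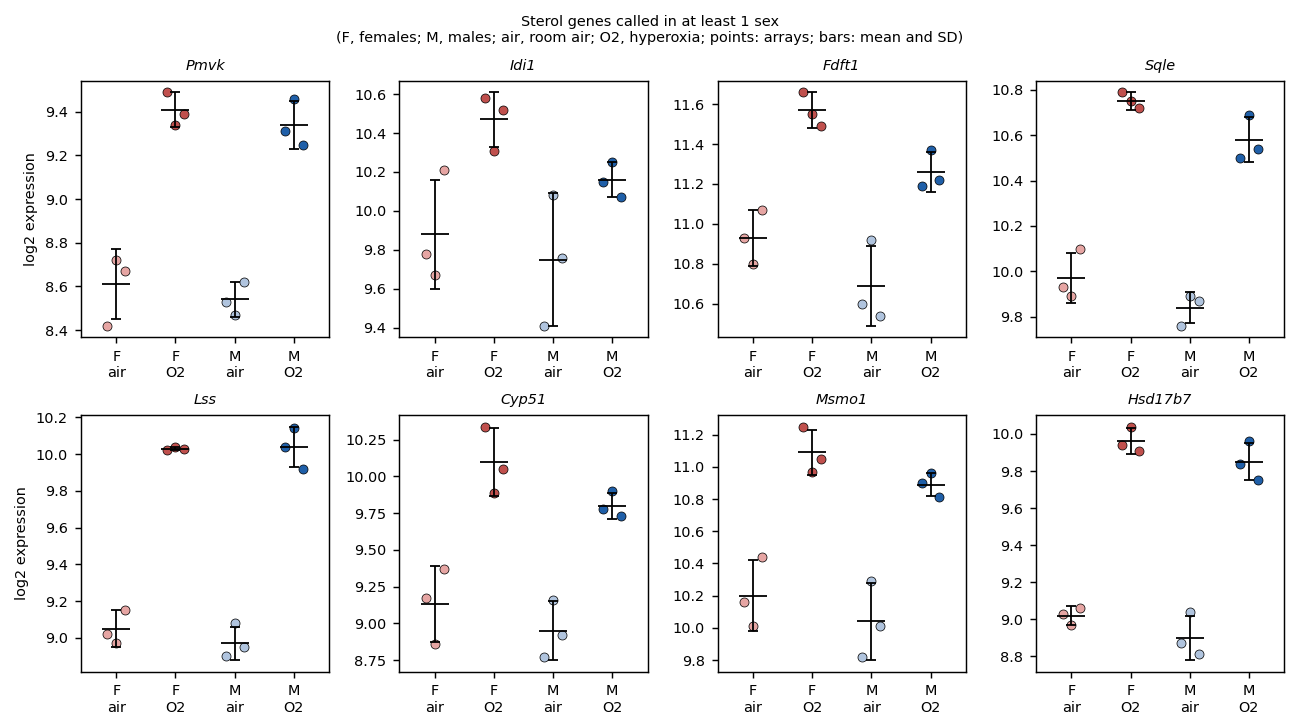
Log2 expression (vertical axis) of the 8 sterol genes called in at least 1 sex, on each of the 12 arrays by group, with the group mean and SD (n = 3). Hyperoxia arrays lie above room air arrays in both sexes for every gene shown except Idi1 in males, where a room air array at 10.08 overlaps a hyperoxia array at 10.07. The vertical axes differ between genes and do not start at 0.

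None of the 6 regulators and transport genes was called in either sex. Scap, the escort of the SREBP factors, differed in the same way in both sexes, from 10.31, 10.29 and 10.26 to 10.53, 10.66 and 10.54 in females and from 10.32, 10.25 and 10.25 to 10.57, 10.62 and 10.59 in males. Those differences, 0.29 (limma adjusted p = 0.00310) and 0.32 (adjusted p = 0.00182), were free of overlap but below the fold threshold, at 1.23-fold and 1.24-fold. Insig1, which retains Scap and is itself a sterol-responsive gene, was at 10.88, 10.82 and 11.04 and then 10.74, 10.59 and 10.72 in females, a difference of -0.23 (adjusted p = 0.149). In males the Insig1 arrays went from 10.64, 10.97 and 10.82 to 10.42, 10.62 and 10.51, a difference of -0.29 (adjusted p = 0.0591). Insig1 thus had negative estimates in both sexes while 7 enzymes of the arm rose in both. Its paralog Insig2 differed by 0.03 in each sex, with a 95% interval of -0.09 to 0.14.

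The genes of the transcription factors themselves differed little. Srebf1 differed by -0.12 (95% interval -0.27 to 0.03) in females and -0.11 (interval -0.26 to 0.04) in males, and Srebf2 by 0.12 (0.01 to 0.22) and 0.04 (-0.06 to 0.15). These factors are activated by cleavage of their proteins, which arrays do not measure. Stard4, a carrier of cholesterol between membranes, was at 9.23, 9.15 and 9.28 and then 9.07, 9.10 and 9.03 in females, and at 9.25, 9.48 and 9.32 and then 8.91, 8.96 and 8.94 in males. The difference was -0.15 (limma adjusted p = 0.167) in females and -0.41 (adjusted p = 0.00154, 1.33-fold) in males. With no adjustment, limma p under 0.05 was found for 2 of the 6 genes on the higher side and 2 on the lower in females, and for 1 and 2 in males, beside the shares of 13.3% to 14.2% of all clusters given above.

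The fatty acid arm moved the other way, and every one of its 12 estimates was at or below 0 in both sexes. It starts with the genes that supply acetyl-CoA. Acly, ATP citrate lyase, which splits citrate in the cytosol, was at 10.87, 10.77 and 10.90 in female room air and 10.14, 10.24 and 10.18 in hyperoxia. In males it was at 10.80, 10.77 and 10.75 and then 10.18, 10.21 and 10.34. The groups lay apart by more than their own range in each sex. The limma adjusted p was 5.02e-05 in females (1.58-fold lower) and 0.000172 in males (1.44-fold lower).

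Acss1 and Acss2 both make acetyl-CoA from acetate, the first in mitochondria and the other in cytosol and nucleus. Acss1 was at 10.92, 11.02 and 11.07 and then 10.28, 10.21 and 10.37 in females, and at 10.98, 11.00 and 11.07 and then 10.21, 10.14 and 10.19 in males. Acss2 was at 9.90, 9.71 and 9.89 and then 9.50, 9.62 and 9.44 in females, and at 9.86, 9.58 and 9.71 and then 9.38, 9.54 and 9.47 in males. Neither gene overlapped between the groups, and Acss1 alone was called. Acss1 fell by 0.71 ± 0.06 (SE, n = 3, limma adjusted p = 3.14e-05) in females and by 0.84 ± 0.06 (adjusted p = 1.06e-05) in males on the log2 scale. The Acss2 difference was -0.31 (adjusted p = 0.0316, 1.24-fold) in females and -0.25 (adjusted p = 0.0731) in males.

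Chain synthesis rests on Acaca, acetyl-CoA carboxylase, whose product malonyl-CoA is the building unit, and Fasn, the synthase that makes palmitate. Fasn was at 12.45, 12.12 and 12.37 in female room air and 11.23, 11.31 and 11.21 in female hyperoxia. Its male arrays held 12.25, 12.10 and 12.08 in room air and 11.16, 11.24 and 11.73 in hyperoxia. All hyperoxia arrays were below all room air arrays, with the third male hyperoxia pool nearest to them. In female room air and both male groups, Fasn was highest in the array with the highest mean of the adipocyte markers described below. In female hyperoxia it was not. With that mean as a covariate, and without the 3 arrays richest in these markers, Fasn kept its calls. The part of the markers in its values was not tested further. The log2 fold change was -1.06 ± 0.14 (SE, n = 3, limma adjusted p = 0.000435) in females, or 2.09-fold lower, and -0.77 ± 0.14 (adjusted p = 0.00290) in males, or 1.70-fold lower.

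Acaca was at 10.94, 10.55 and 10.95 and then 10.16, 10.12 and 10.20 in females, and at 10.71, 10.66 and 10.53 and then 10.15, 10.15 and 10.43 in males. The third male hyperoxia pool was again the highest of its group, and the groups did not overlap. Acaca was highest in the array with the highest adipocyte marker mean in the male groups, but not in the female groups. The gene fell in females (limma adjusted p = 0.00272, 1.57-fold lower) and in males passed the p threshold but not the fold threshold (adjusted p = 0.0400, 1.31-fold). The male minus female difference in change was 0.27 for Acaca (95% interval -0.10 to 0.63, unadjusted p = 0.134 from limma) and 0.30 for Fasn (interval -0.14 to 0.74, unadjusted p = 0.163). A second cluster of Acaca gave -0.64 in females and -0.39 in males.

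The elongases behaved differently from each other. Elovl1, which extends saturated chains to very long ones, was at 12.55, 12.65 and 12.61 and then 12.04, 12.07 and 12.08 in females, and at 12.61, 12.65 and 12.62 and then 12.10, 12.15 and 12.14 in males. Arrays of a group lay within 0.10 of each other, and the groups were well apart. The fall was 0.54 ± 0.05 (SE, n = 3, limma adjusted p = 3.40e-05) in females, and the male change was -0.50 ± 0.05 (adjusted p = 4.97e-05). The male fold of 1.41 was close to the threshold, and without the second male room air array or the first male hyperoxia array it was below it, at a log2 of -0.48. Elovl5, an elongase of polyunsaturated chains, differed by -0.19 (adjusted p = 0.0723) and -0.18 (adjusted p = 0.0830), with no overlap.

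Elovl6, which lengthens palmitate to stearate, had the widest spread of the 35 genes. Its female room air arrays were at 10.98, 9.82 and 10.60 and its female hyperoxia arrays at 10.32, 9.58 and 9.50. In males it was at 9.75, 9.46 and 9.22 and then 9.18, 9.39 and 9.85. The groups overlapped in both sexes, and the difference was -0.67 ± 0.32 (SE, n = 3, limma adjusted p = 0.213) in females and 0.00 ± 0.32 in males. Within each group the array with the highest Elovl6 value also had the highest value of an adipocyte marker. Adipoq, the adipocyte hormone adiponectin, was at 10.47, 9.10 and 10.00 in female room air and 9.81, 9.27 and 8.63 in female hyperoxia, and at 9.46, 8.01 and 8.59 and then 8.41, 8.74 and 9.94 in males. With the mean of the adipocyte markers as a covariate the female Elovl6 difference was -0.42 (adjusted p = 0.249), and without the 3 arrays richest in these markers it was -0.41 (adjusted p = 0.567). With 1 array left out it ran from -0.41, without replicate 1 of female room air, to -0.99, without replicate 2 of that group (adjusted p = 0.0490). Without the 3 arrays richest in squamous markers it was -0.28 (adjusted p = 0.758).

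Among the desaturases no gene was called, and 3 of 4 in females and 2 of 4 in males were lower at an adjusted p under 0.05 and a fold under 1.4. Scd1, a stearoyl-CoA desaturase that makes monounsaturated fatty acids, was at 13.59, 13.47 and 13.61 and then 13.20, 13.21 and 13.27 in females, and at 13.48, 13.61 and 13.52 and then 13.17, 13.14 and 13.22 in males. The differences of -0.33 (limma adjusted p = 0.00258) and -0.36 (adjusted p = 0.00137) were 1.26-fold and 1.29-fold and thus under the fold threshold. Scd2, a near neighbour of Scd1 on chromosome 19, differed by -0.42 (adjusted p = 0.00567) and -0.31 (adjusted p = 0.0279). The Scd genes are close paralogs, and cross-hybridization between them was not tested. Fads2 and Fads1, adjacent genes on the same chromosome that desaturate polyunsaturated chains, had overlapping intervals, and the difference between them was not tested. Fads2 was lower by 1.21-fold in females (log2 -0.27, adjusted p = 0.0162) and had a log2 difference of -0.18 (adjusted p = 0.0997) in males, while Fads1 had -0.04 (95% interval -0.18 to 0.11) and -0.06 (interval -0.20 to 0.08). Over the arm, 9 of 12 genes were lower at an adjusted p under 0.05 and any fold in females and 7 in males, against 8.62% and 9.30% of all clusters. The hyperoxia arrays lay wholly below room air for 10 of 12 genes in each sex, all but Elovl6 and Fads1, against 15.7% and 16.7% of all clusters.

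**Figure D3:**
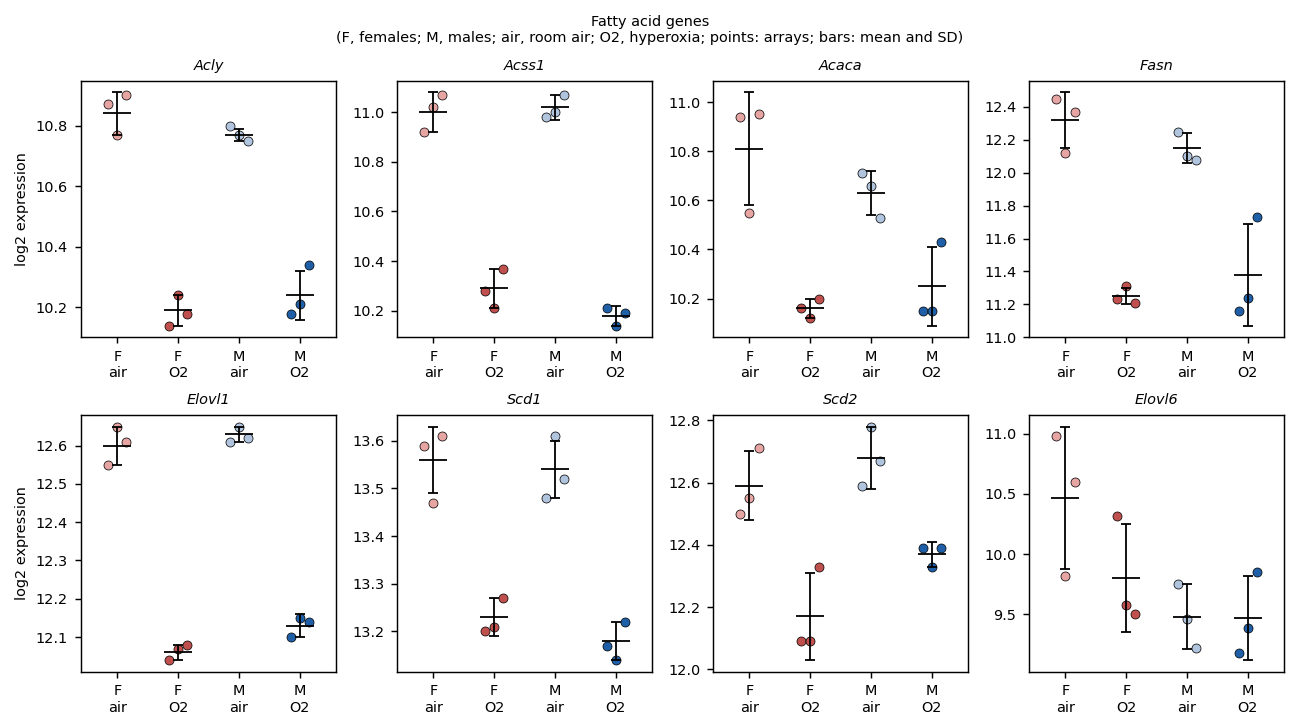
Log2 expression (vertical axis) of fatty acid genes on each of the 12 arrays by group, with the group mean and SD (n = 3). Fasn falls from 12.12 or more to 11.31 or less in females, and Elovl6 overlaps between room air and hyperoxia in both sexes. The vertical axes differ between genes and do not start at 0.

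Markers of other cells were examined beside these changes. The mean log2 value of 11 alveolar type II cell markers was 12.09 to 12.16 in female room air, 11.61 to 11.74 in female hyperoxia, 12.06 to 12.19 in male room air and 11.68 to 11.76 in male hyperoxia. Of these 11 genes 6 were called lower in females and 4 in males, with a median log2 fold change of -0.50 and -0.41. Of all clusters 2.93% were called lower in females and 3.39% in males, and 3.59% and 3.94% were called higher. Abca3, the lipid transporter of surfactant granules, fell by 0.74 and 0.69 on the log2 scale (limma adjusted p = 3.14e-05 and 4.09e-05), whereas the surfactant protein gene Sftpc differed by -0.23 and -0.26 and Sftpb by -0.03 and -0.07. As the lung label implies, these genes were well measured, with means over the 12 arrays from 9.72 for Cebpa to 13.91 for Sftpc. Markers of other lung cells were lower too. Of 8 endothelial markers 4 were called lower in each sex, with medians of -0.55 and -0.63, and of 7 club and ciliated cell markers 2 were, with medians of -0.21 and -0.30. Of 6 type I cell markers 1 was called lower in each sex and 1 higher, with medians of -0.24 and -0.15, and Rtkn2 had the lowest values at -1.97 and -1.56. Of 6 alveolar macrophage markers 2 were called higher and 1 lower in females, and 1 and 1 in males. The part of these cells in the results was not tested.

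A further pair of lists marked tissue that a lung sample can carry with it. The mean of 11 adipocyte markers ran from 8.53 to 9.25 in female room air, 8.29 to 8.85 in female hyperoxia, 7.99 to 8.94 in male room air and 8.27 to 9.03 in male hyperoxia, and that of 14 squamous epithelium markers from 7.33 to 10.29 over the 12 arrays. None of either list was called by limma. At an unadjusted limma p under 0.05 only 1 adipocyte marker in females was lower, beside 13.7% of all clusters in females. The squamous mean was highest in replicate 1 of female hyperoxia (10.29) and in replicates 1 and 3 of female room air (10.05 and 9.51). Without these 3 arrays, which leaves 1 female room air array assumed to vary like the rest, Fasn in females had a log2 difference of -0.86 with an adjusted p of 0.0774, Acaca -0.38 with 0.205 and Fdft1 0.72 with 0.0533. Without the 3 arrays richest in adipocyte markers, the first of female room air, the first of male room air and the third of male hyperoxia, Fdft1 in males had a value of 0.55 with an adjusted p of 0.0699 and Cyp51 0.80 with 0.0529. The part of this tissue in the results was not tested beyond these refits.

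**Figure D4:**
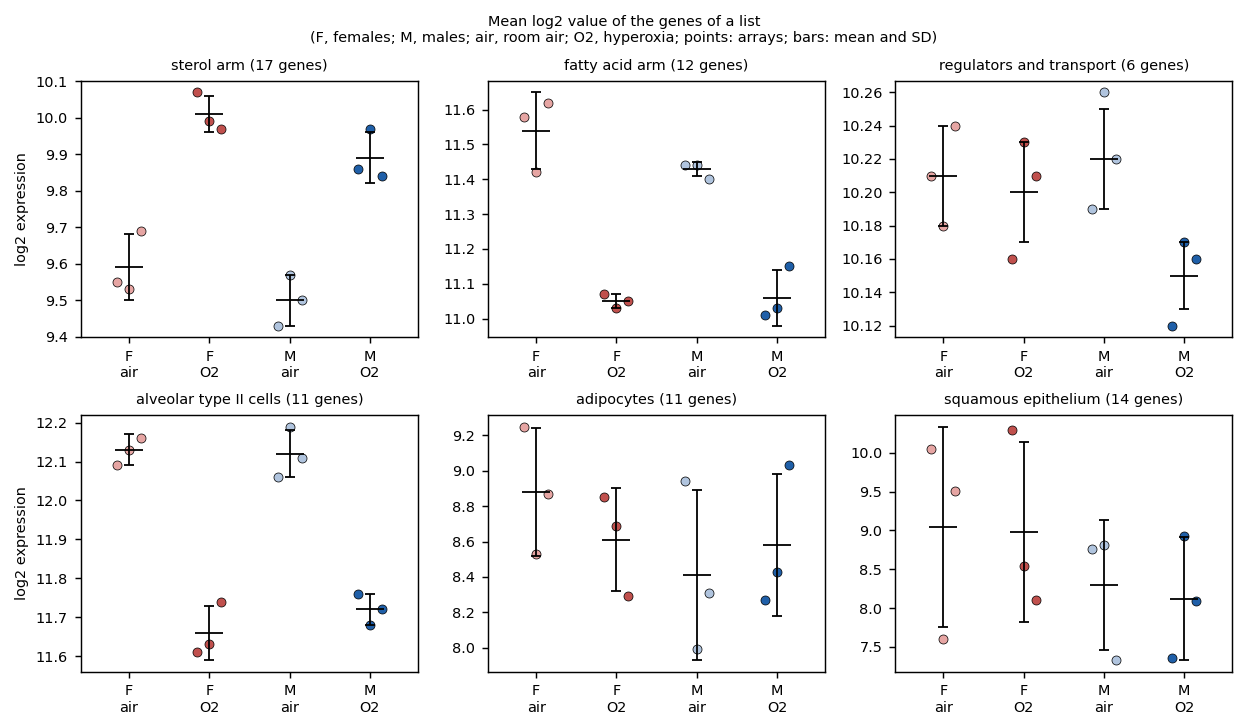
Mean log2 expression over the genes of a list (vertical axis) on each of the 12 arrays by group, with the group mean and SD (n = 3). The sterol arm lies higher in hyperoxia, from 9.84 to 10.07 against 9.43 to 9.69 in room air, the fatty acid arm and the alveolar type II markers lie lower, the regulators and transport group stays between 10.12 and 10.26, and the adipocyte and squamous lists overlap between the groups. The vertical axes differ between lists and do not start at 0.

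The sexes were compared gene by gene. None of the 35 genes was called in the interaction (the change in males minus that in females, in log2), and no cluster of the whole array was (0%). At an unadjusted p under 0.05 from limma there was 1 gene of the 35, Stard4, at -0.25 (95% interval -0.46 to -0.04, unadjusted p = 0.0227), against 1.45% of all clusters, and its adjusted p was 1.00. The interval of the interaction was -0.16 to 0.31 for Lss, -0.24 to 0.25 for Hsd17b7 and -0.33 to 1.65 for Elovl6, where it was widest. Idi1 and Acaca, called in females alone, had interactions of -0.18 (interval -0.73 to 0.37) and 0.27 (interval -0.10 to 0.63), so a difference between the sexes was not shown for either.

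Between males and females in room air no gene of the set was called, as for 0.0141% of all clusters. With no adjustment 2 of them had a limma p under 0.05, against 2.44% of all clusters. They were Fdft1, at -0.25 (male minus female, unadjusted p = 0.0463), and Elovl6, at -0.99 (unadjusted p = 0.0102). In hyperoxia there was again no call, against 0.0169% of all clusters, and 3 genes had an unadjusted p under 0.05, against 3.26%. These were Fdft1 at -0.31, Sqle at -0.17 and Scd2 at 0.20, and the smallest adjusted p of the 35 genes was 0.945. The differences between the sexes ran from -0.99 to 0.13 in room air and from -0.33 to 0.20 in hyperoxia.

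Other genes of the sterol route were read from a further list, of which 6 of 12 genes could be named. Among them 1 was upregulated and 1 downregulated in both sexes, beside 2.93% to 3.94% of all clusters called in a given direction. Erlin1, a protein of the endoplasmic reticulum that helps break down sterol-regulated proteins, was at 9.08, 9.01 and 9.34 and then 10.03, 9.77 and 10.00 in females, and at 8.98, 9.20 and 9.10 and then 9.91, 9.87 and 9.86 in males. Mbtps1, the protease that makes the first cut in the SREBP factors, was at 10.82, 10.98 and 10.91 and then 10.33, 10.32 and 10.43 in females, and at 10.92, 10.97 and 10.91 and then 10.32, 10.34 and 10.30 in males. The groups were apart for both genes. Erlin1 rose by 0.79 in each sex (limma adjusted p = 0.000334 and 0.000314), and Mbtps1 fell by 0.54 and 0.61 on the log2 scale (adjusted p = 0.000105 and 4.21e-05), beside higher sterol enzymes. Npc1, which releases cholesterol from lysosomes, differed by 0.40 and 0.35, below the fold threshold.

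Of 8 genes measured in a list of sterol efflux and LXR genes, 1 rose and 3 fell in females and 1 rose and 4 fell in males. The share of all clusters called in a given direction was 2.93% to 3.94%. Ch25h, which makes a hydroxylated cholesterol known to hold back SREBP activation, was at 8.40, 8.36 and 8.15 and then 10.47, 10.13 and 10.33 in females, and at 8.24, 8.41 and 8.24 and then 9.72, 10.43 and 9.94 in males. All hyperoxia arrays were above room air, by a mean of 2.01 and 1.74 in log2 (limma adjusted p = 2.37e-05 and 4.68e-05). Several LXR targets fell and others were not called. Abca1, a cholesterol exporter, fell by 0.65 and 0.56, and Mylip, a ligase that removes lipoprotein receptors, by 0.53 and 0.61. Cyp27a1, which makes a hydroxylated sterol, fell by 0.54 and 0.60 on the same scale. The exporter Abcg1 had -0.46 in females, short of the fold threshold, and fell by 0.59 in males. Apoe, a lipoprotein component, was short of the fold threshold at -0.37 and -0.40 (limma adjusted p = 0.00249 and 0.00142). Lpcat3, a phospholipid acyltransferase, was not called at -0.04 and 0.05 (adjusted p = 0.858 and 0.816).

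The remaining fatty acid synthesis genes did not share the direction of the 12. Of 23 measured, 4 were upregulated and 3 downregulated in females, and 6 and 1 in males, with a median log2 fold change of 0.01 and 0.02. Of all clusters 3.59% were called higher and 2.93% lower in females, and 3.94% and 3.39% in males. Elovl7, an elongase, rose by 0.77 and 1.09 (limma adjusted p = 0.00956 and 0.00112), and Hacd1, a dehydratase of the elongation cycle, by 0.68 and 0.73 (adjusted p = 0.00113 and 0.000687). Hacd3, of the same family, fell by 0.65 and 0.64 in log2 (adjusted p = 0.00740 and 0.00731). Thrsp, a regulator of lipogenesis, was at 9.64, 8.62 and 9.28 and then 8.09, 8.24 and 7.96 in females, a log2 change of -1.08 (adjusted p = 0.0470). Its male arrays, at 9.00, 8.02 and 8.25 and then 7.84, 7.77 and 8.69, overlapped, with -0.32 (adjusted p = 0.671). In 3 of the 4 groups Thrsp was highest in the array with the highest adipocyte mean, and in female hyperoxia it was highest in replicate 2 while that mean was highest in replicate 1. The part of these markers in its values was not tested.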

How the data were processed

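Robust Multichip Average, applied by the authors, gave the deposited log2 values, 1 for each transcript cluster and array. It corrects background, normalizes the arrays by quantiles and summarizes each cluster over its probes. Its version was not given in the sources used here. A test of array batches was not made, for want of scan dates. The step brings all arrays to nearly 1 distribution (medians 8.12 to 8.20, correlation between arrays 0.969 to 0.995), so values are relative to the whole array. The number of arrays limits the precision.

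All 35556 clusters were used with no filter. A gene stands for its cluster with 1 symbol in the platform annotation and the highest mean, and clusters with several symbols name no gene. The means of the 4 groups were fitted with limma 3.58.1 (lmFit, contrasts.fit, eBayes) in R 4.3.3, with contrasts for hyperoxia in each sex, their difference, and the sexes in each condition. Calls needed a fold of 1.4 or more and a p under 0.05 after Benjamini-Hochberg adjustment over all clusters of that contrast. The study states the same fold and a false discovery rate, without naming the adjustment. A trial run used simulated data whose noise was independent between clusters and between arrays. It did not model deviations that clusters or arrays share, and no result here rests on it. The p-values set each difference against the spread between pools, which limma estimates over all 4 groups and moderates over all clusters. The deviations of same-numbered arrays correlated at 0.28, 0.70 and 0.46 between the female groups and at -0.17, 0.33 and 0.23 between the male groups. The labels do not pair the arrays, and whether they are paired in either sex was not tested.

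The members, lists and marker sets were chosen with earlier results of these data known. Values are given for every array where a member was called and for some members that were not, and some called genes of the further lists are named. Npc1, Cpt1a and the uncalled markers were named after their values were seen. Alternatives were a replicate block, each sex alone, other eBayes, weighting, normalization, filter and threshold settings, other choices of cluster, marker means as covariates, and leaving out arrays. The refit without the arrays richest in adipocyte markers and the replicate block within each sex were chosen after seeing the data. Promoters came from a RefSeq table on GRCm38.p6, searched on both strands over 250 bases before the start.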

Additional observations from a re-analysis of the deposited data

How the results depend on the processing

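Single genes were followed under 16 other settings and with each of the 12 arrays left out. Only the members called in at least 1 sex, and Elovl6 in females, were followed in this way. Of their 756 values, 729 kept their direction and their side of the thresholds. A call was lost in 22 and gained in 5, and none changed sign when called. Calls gained by other members are not in this count. Part of this count was fixed in advance. Leaving out an array of either sex cannot move the fold change in the other, and other thresholds or filters of clusters keep the estimates. Sterol genes called higher numbered 6 to 10 in females and 5 to 8 in males over all settings, and fatty acid genes called lower 3 to 9 and 3 to 7. The median of the sterol arm in females ran from 0.37 to 0.50 and that of the regulators from -0.07 to 0.00 with 1 array left out. With no fold threshold 9 fatty acid genes were lower in females and 7 in males, and 1 regulator was higher in females, with 1 higher and 1 lower in males. Without the 3 arrays richest in squamous markers the female values were 3 fatty acid genes, a fatty acid median of -0.31 and a regulator median of 0.00. The regulator median was 0.00 in females with array weights, whose estimation did not converge, and -0.01 in females and 0.00 in males with arrays centred on the median, which also put Elovl1 in males below the fold threshold at -0.45. Idi1 in females lost its call when each sex was fitted alone (0.59, adjusted p 0.0664), with the adipocyte covariate (0.51, 0.0787), and without the arrays richest in squamous (0.75, 0.152) or adipocyte (0.53, 0.114) markers, at values near or above the 0.59 of the report. Elovl6 in females was called with array weights (-1.19, adjusted p 0.00269), with the squamous covariate (-0.64, 0.0338) and without the second female room air array (-0.99, 0.0490), and its values over all settings ran from -1.19 to -0.28. The cause was not tested.

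Replicate numbers do not pair the samples across all 4 groups, since the deviations of same-numbered arrays correlated from -0.71 to 0.70. With the replicate number as 1 block over all groups, Idi1 in females was 0.59 with an adjusted p of 0.0759, and that block changed no other call of a named member. With a block of its own in each sex, added after seeing the data, the pairing changed no call, and Idi1 in females had an adjusted p of 0.0278.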

Other observations

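Genes that put fatty acids into phospholipids and triglycerides were also measured. Of 13 with a named cluster, 2 rose and 1 fell in each sex, beside 2.93% to 3.94% of all clusters called in a given direction. The medians of the log2 fold changes were -0.07 for females and -0.01 for males. Chka, choline kinase, which starts the synthesis of phosphatidylcholine, was at 10.08, 10.22 and 10.25 and then 10.88, 10.89 and 11.06 in females, and at 9.98, 10.27 and 10.11 and then 11.00, 10.92 and 10.89 in males. Lpin2, a phosphatidate phosphatase, was at 10.91, 10.96 and 11.06 and then 11.68, 11.76 and 11.63 in females, and at 10.84, 10.97 and 10.89 and then 11.62, 11.66 and 11.55 in males. Lpcat1, the acyltransferase that makes the saturated phosphatidylcholine of surfactant in type II cells, was at 12.13, 12.28 and 12.27 and then 11.22, 11.36 and 11.38 in females, and at 12.19, 12.33 and 12.26 and then 11.52, 11.48 and 11.51 in males. None of the 3 overlapped between room air and hyperoxia. Chka rose by 0.76 and 0.81 (limma adjusted p = 0.000171 and 9.69e-05), Lpin2 by 0.72 and 0.71 (3.48e-05 and 2.98e-05), and Lpcat1 fell by 0.90 and 0.75 in log2 (1.30e-05 and 3.07e-05). The type II markers fell beside Lpcat1, and their part in its change was not tested.

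Of 11 genes of fatty acid oxidation none was called by limma in females and 1 was called higher in males, where 3.94% of all clusters were. With no adjustment a limma p under 0.05 went with 2 positive and 3 negative differences for females and with 3 and 2 for males. Of all clusters 13.3% and 13.7% passed that p for females and 13.8% and 14.2% for males. Acadl, the long-chain acyl-CoA dehydrogenase, was at 10.86, 10.68 and 10.85 and then 11.29, 11.18 and 11.28 in females, and at 10.58, 10.75 and 10.60 and then 11.15, 11.20 and 11.22 in males. The groups did not overlap in either sex, and the difference of 0.45 in females (limma adjusted p = 0.00122) was short of the fold threshold that the male value of 0.55 (adjusted p = 0.000336) passed. Cpt1a, the entry step of the route, differed by -0.02 and -0.05.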
